A study of Mus musculus with 15 samples.

Results

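The mouse Trbv13 family consists of 3 V genes of the T cell receptor (TCR) β locus, Trbv13-1 (TCRBV13-01 in the files), Trbv13-2 (TCRBV13-02) and Trbv13-3 (TCRBV13-03), whose products form the Vβ8 chains. Its members were all rearrangements for which the deposited files named one of these 3 genes, of 35 V genes named in all, in 15 samples. They came to 5899 of 29992 rearrangements, and 4035 of 18625 productive ones (21.7%), made of 1214 with Trbv13-1, 1779 with Trbv13-2 and 1042 with Trbv13-3. A further 12 rearrangements that the files tied between Trbv13-2 and Trbv13-3 were not counted as members. The samples were the right tumor (tumor 1), the left tumor (tumor 2) and the tumor-draining lymph node (TdLN) of 5 untreated mice, n = 5 per tissue. In the study's design with tumors on both flanks, female C57BL/6 mice of 6 weeks received B16F10GP, a B16F10 melanoma line made to express the LCMV glycoprotein. It was given on the right on day 0 and on the left on day 3, with tissue taken on day 19. The tumor line and these days were taken to hold for the sequenced mice, as the study's text on TCR sequencing does not name them. CD8+ PD-1+ CD44+ T cells were sorted, and the TCRβ rearrangements in their genomic DNA were read with the immunoSEQ assay. The assay holds no gene expression, so the sort could not be checked against markers.

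A β chain gene is assembled in the thymus from a V, a D and a J segment, with bases trimmed from the ends and others (N bases) added at random. The V segment encodes the loops that lean towards the MHC, while the junction encodes CDR3, the loop that lies over the peptide. Vβ8 chains are among the most used in C57BL/6 mice, and receptors against the LCMV glycoprotein are known that carry them. A unique TCR here was 1 distinct in-frame nucleotide rearrangement in a sample, and its templates were the number of genome copies of it that the assay estimated. The files listed 3254 to 9105 productive templates per TdLN, 3601 to 6137 per right tumor and 238 to 3975 per left tumor, and the family held 282 to 1288, 30 to 86 and 10 to 121 unique TCRs in these. Left tumor 4 was the sample of 238 templates. Some libraries shared identical rearrangements across mice. Of the unique Trbv13 TCRs of the left tumors, 61.9% (mouse 1), 54.7% (mouse 2), 41.7% (mouse 3), 60% (mouse 4, 6 of 10 TCRs) and 3.31% (mouse 5) were also listed in a sample of another mouse, against 3.33% to 36.2% in the right tumors and 1.09% to 5.92% in the TdLNs. Values without these TCRs are given for the family's shares against the TdLN, some member shares, the J genes and the overlap with the TdLN. They are not given for CDR3 length, the non-productive rearrangements or the sharing between right and left tumors.

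The 3 genes lie within a short stretch of chromosome 6 (GRCm38), in the order Trbv13-1 (41116007 to 41116468), Trbv12-2, Trbv13-2 (41121396 to 41121832), the Trbv12-3 pseudogene and Trbv13-3 (41130147 to 41130585), all on the plus strand. Their second exons, which encode the V domain, have 294 bases each. Identity over this exon was 91.8% between Trbv13-2 and Trbv13-3, 88.8% between Trbv13-1 and Trbv13-2 and 86.1% between Trbv13-1 and Trbv13-3. The last 60 bases, read from the RefSeq GRCm38 genome, are shown because they cover most of the V part that the assay reads. That part had a median of 62 bases (35 to 79) in the family's productive rearrangements, and could start before the bases shown. Capitals mark the 13 positions at which the 3 genes are not all alike.
Trbv13-1 (chr6:41116409-41116468): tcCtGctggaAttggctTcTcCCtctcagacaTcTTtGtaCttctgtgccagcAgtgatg
Trbv13-2 (chr6:41121773-41121832): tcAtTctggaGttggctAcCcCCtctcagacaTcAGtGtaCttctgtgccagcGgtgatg
Trbv13-3 (chr6:41130526-41130585): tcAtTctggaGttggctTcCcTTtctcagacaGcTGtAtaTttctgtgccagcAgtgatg
The last of these positions lies inside CDR3, where the codon reads GGT (glycine) in Trbv13-2 and AGT (serine) in Trbv13-1 and Trbv13-3. The names given by the files were checked against these sequences. The V part of 90.1% of the 4035 productive rearrangements matched the named gene at every base, and 99.3% were closest to the named gene among the 3. The check was less clean for Trbv13-2, with 86.1% exact and 98.5% closest. Trbv13-1 and Trbv13-3 had 93.7% and 92.9% exact and 100% closest.

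The family, which pools 3 genes, was the most used V family by unique TCRs in all 3 tissues. As a single V gene, Trbv19 had a higher mean share than each member in the right (10.9%) and left tumors (14.7%). In the TdLN the family held 22.1%, 19.7%, 21.9%, 21.8% and 22.5% of unique productive TCRs in mice 1 to 5, a mean of 21.6% ± 1.11 (SD, n = 5). The next family, Trbv12, held 14.3%. Trbv13-2 was the most used single V gene of the TdLN, 1st of 29 seen there, with 9.65%, 8.59%, 9.69%, 9.55% and 10.9% in mice 1 to 5. Trbv13-1 ranked 6th, at 6.53%, 6.07%, 6.28%, 6.45% and 5.93%. Trbv13-3 ranked 8th, at 5.94%, 5.03%, 5.89%, 5.80% and 5.69%. The order Trbv13-2, Trbv13-1, Trbv13-3 held in each of the 5 nodes, and the Trbv13-2 values did not overlap with those of the other members, while the ranges of Trbv13-1 and Trbv13-3 met at 5.93% and 5.94%. Node 2 had the lowest share of both Trbv13-2 and Trbv13-3.

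The family's mean share of unique TCRs was slightly lower in the tumors, a difference within the spread between mice. In the right tumors the family held 18.4%, 19.9%, 16.5%, 23.5% and 22.3% of unique TCRs in mice 1 to 5 (mean 20.1% ± 2.86, SD, n = 5). The left tumors had 19.03%, 20.7%, 18.6%, 20% and 21.9% (mean 20.04% ± 1.33, SD, n = 5). All 3 tissues overlapped. The difference from the TdLN was −1.50 percentage points for the right tumors (two-sided exact permutation p = 0.333, adjusted p = 0.708 over 17 V families) and −1.56 for the left tumors (exact permutation p = 0.103, adjusted p = 0.195). The 2 tumors differed by 0.0688 points (exact permutation p = 0.968). In each of the 3 comparisons 0 of 17 V families were called (0%, 4, 5 and 1 at an unadjusted p under 0.05). Without TCRs found in another mouse the differences from the TdLN were −2.78 points on the right (exact permutation p = 0.0794, adjusted p = 0.225) and −4.05 on the left (exact permutation p = 0.0397, adjusted p = 0.189). These values came from few TCRs in the tumors. In left tumor 4 the share rested on 10 of 50 TCRs, with a 95% Wilson interval of 11.2% to 33.0%.

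**Figure D1:**
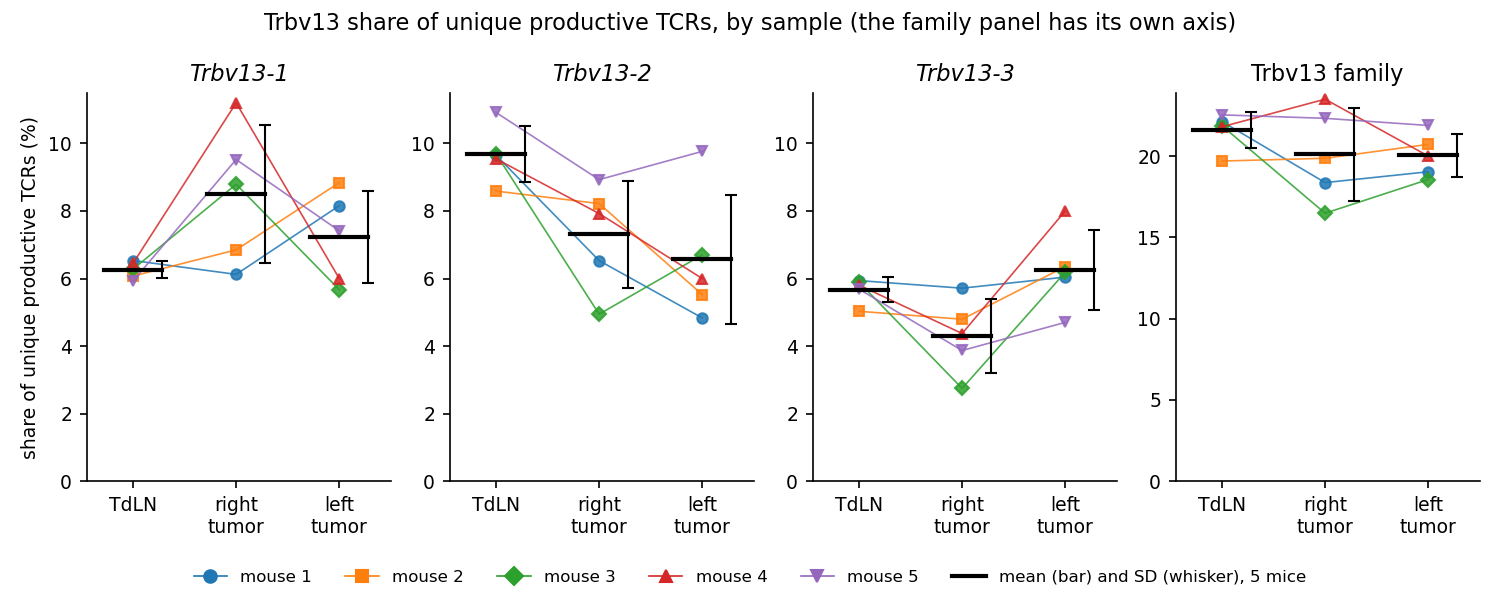
Share of unique productive TCRs (%) by tissue for each Trbv13 gene and for the family, with 1 marker and line per mouse and the mean and SD of 5 mice in black. Trbv13-2 lay lower in both tumors than in the TdLN of the same mouse in all 5 mice, while the family panel overlaps throughout.

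Trbv13-1 was the member with a higher mean share in the right tumors, although it did not pass the adjusted test. It held 6.12%, 6.85%, 8.79%, 11.2% and 9.52% of unique TCRs there in mice 1 to 5, higher than in the TdLN in 4 of 5 mice (8.50% ± 2.05 against 6.25% ± 0.252, SD, n = 5, difference 2.24 points, exact permutation p = 0.0397, adjusted p = 0.132 over 20 V genes). Trbv13-2 held 6.53%, 8.22%, 4.95%, 7.92% and 8.93%, below the TdLN of the same mouse in all 5 mice (7.31% ± 1.58, SD, n = 5, difference −2.37 points, adjusted p = 0.0952, exact permutation). Trbv13-3 held 5.71%, 4.79%, 2.75%, 4.37% and 3.87%, also below its TdLN in all 5 mice (4.30% ± 1.10, SD, n = 5, difference −1.37 points, exact permutation p = 0.0238, adjusted p = 0.0952). None of the 3 members passed the adjusted threshold of 0.05, and neither did any other V gene (0 of 20, 0%, with 7 of 20 at an unadjusted p under 0.05). With 5 samples against 5 the smallest p is 0.00794, so a V gene that reached it alone would have an adjusted p of 0.159, and no call was possible without several genes at low p together. Other ways of counting did give 4 calls, Trbv13-1 and Trbv13-2 among them at an adjusted p of 0.0397 (exact permutation). These counted each CDR3 amino acid sequence with its V and J gene once (2.12 and −2.39 points), or left out small rearrangements that shared their last 40 bases with one of at least 50 times more templates in the same sample (2.46 and −2.91 points). Right tumor 4 held 23 such rearrangements among its 86 Trbv13 TCRs. Without TCRs found in another mouse the difference of Trbv13-1 was 1.49 points (adjusted p = 0.447, exact permutation), that of Trbv13-2 was −2.18 (adjusted p = 0.106, exact permutation) and that of Trbv13-3 was −2.09 (adjusted p = 0.106, exact permutation).

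Trbv13-2 was also below the TdLN in the left tumors, without passing the adjusted test. It held 4.83%, 5.52%, 6.70%, 6% and 9.76% of unique TCRs in mice 1 to 5, lower than in the node of the same mouse in all 5 (6.56% ± 1.91, SD, n = 5, difference −3.11 points, exact permutation p = 0.0397, adjusted p = 0.159). The value of left tumor 5 lay within the range of the nodes and the other 4 below it. Trbv13-1 ranged from 5.67% to 8.84% (difference 0.963 points, adjusted p = 0.303, exact permutation). Trbv13-3 ranged from 4.70% to 8% (difference 0.586 points, adjusted p = 0.525, exact permutation), and without TCRs found in another mouse this difference turned to −0.627 points. Again 0 of 20 V genes were called (0%, 6 at an unadjusted p under 0.05). Trbv2, Trbv12-1 and Trbv12-2 were, like Trbv13-2, lower in all 5 left tumors. Between the tumors Trbv13-3 was lower on the right in all 5 mice, by 1.957 points on average (exact permutation p = 0.0238, adjusted p = 0.476), and 0 of 20 V genes were called (0%, 2 unadjusted). Read as shares of the family alone, Trbv13-1 made up 29.0% ± 1.68 of Trbv13 TCRs in the TdLN, 42.3% ± 8.55 in the right and 36.0% ± 6.36 in the left tumors (SD, n = 5). Trbv13-2 made up 44.8% ± 2.08, 36.1% ± 4.64 and 32.6% ± 7.92 of the family in the same order. Trbv13-2 had the most unique TCRs of the 3 members in every TdLN, and Trbv13-1 had more than Trbv13-2 in 3 of 5 right and 2 of 5 left tumors.

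By templates, which weight each TCR by its abundance, the family was spread far more between tumors than between nodes. It held 21.6%, 17.7%, 19.8%, 21.8% and 21.6% of productive templates in the TdLNs of mice 1 to 5 (20.5% ± 1.76, SD, n = 5). In the right tumors these shares were 6.13%, 11.7%, 4.03%, 31.2% and 12.1% (13.02% ± 10.7, SD, n = 5). On the left they were 9.03%, 11.7%, 14.1%, 35.3% and 19.004% (17.8% ± 10.4, SD, n = 5). Mouse 4 stood above all nodes in both tumors, and the other 4 mice lay below the family's lowest node in the right tumor. The family ranked 1st of the V families in the TdLN and left tumors and 3rd in the right tumors, below Trbv16 at 15.2%. The differences from the TdLN were −7.50 points (right, exact permutation p = 0.167, adjusted p = 0.444) and −2.70 points (left, adjusted p = 0.753, exact permutation). Of the V families, 4 of 16 (25%) were called on the right and 0 of 16 (0%, 6 unadjusted) on the left, the Trbv13 family not among them, and between the tumors 0 of 15 (0%, 1 unadjusted). The family's differences were −11.7 and −6.73 points without mouse 4, with adjusted p of 0.0762 and 0.183 (exact permutation). On the left the difference was −0.228 points without mouse 1. In mice 1 to 3 alone the right difference was −12.4 points, and in mice 4 and 5 alone −0.114. Without TCRs found in another mouse it was −6.97 on the right (exact permutation p = 0.0159, adjusted p = 0.254) and −3.06 on the left (adjusted p = 0.349, exact permutation).

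**Figure D2:**
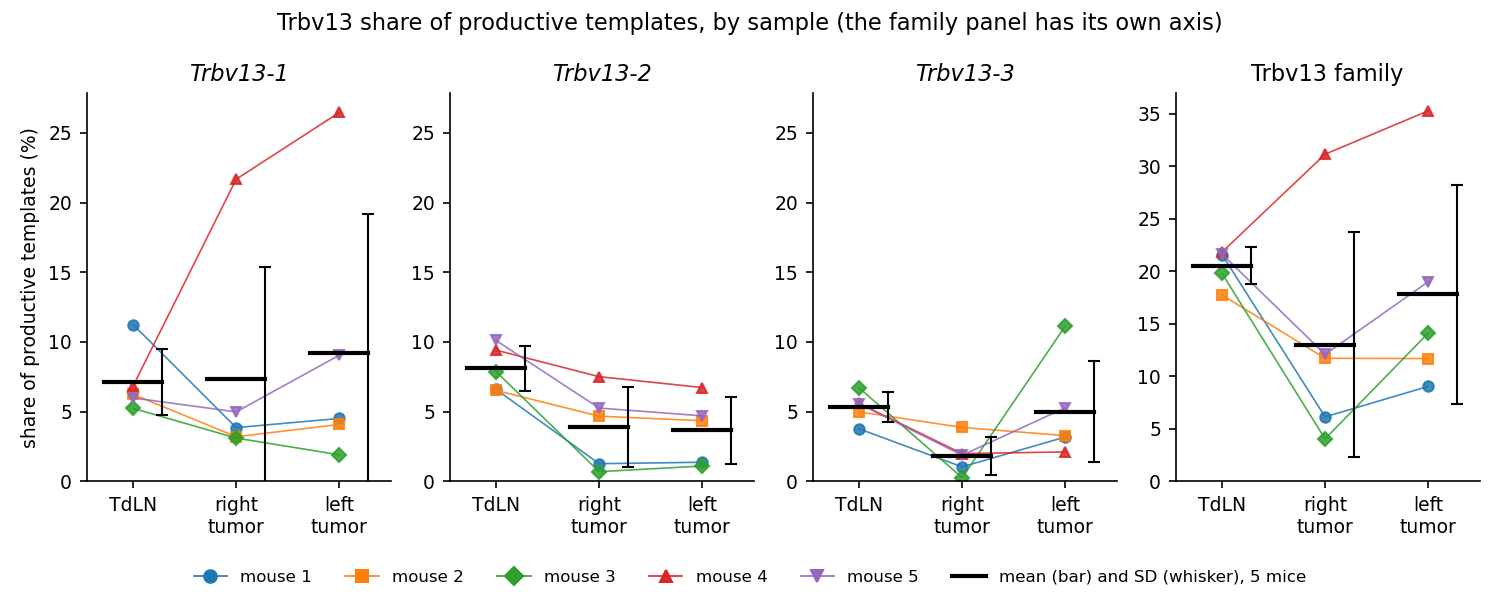
Share of productive templates (%) by tissue for each Trbv13 gene and for the family, with 1 marker and line per mouse and the mean and SD of 5 mice in black. Mouse 4 stood at 31.2% and 35.3% of templates in its tumors, mostly from Trbv13-1, and the right tumors of the other mice lay between 4.03% and 12.1%.

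Trbv13-3 and Trbv13-2 held a smaller share of templates in the right tumors than in the TdLN in all 5 mice. Trbv13-3 went from 3.76%, 4.98%, 6.70%, 5.59% and 5.56% of templates in the TdLNs to 1.03%, 3.86%, 0.252%, 1.98% and 1.86% in the right tumors, groups that met only at node 1 and right tumor 2. Its difference was −3.52 points (exact permutation p = 0.0159, adjusted p = 0.0503 over 19 V genes), and limma on log2(share + 0.1) gave an adjusted p of 0.0476, or 0.0332 with the mouse as a block. Trbv13-2 went from 6.59%, 6.52%, 7.87%, 9.41% and 10.1% to 1.26%, 4.67%, 0.680%, 7.50% and 5.25% (difference −4.23 points, exact permutation p = 0.0238, adjusted p = 0.0646). Neither was among the 4 of 19 V genes (21.1%) called in this comparison, which were Trbv4, Trbv15, Trbv26 and Trbv29, all lower in the right tumors (adjusted p = 0.0377, exact permutation). At an unadjusted p under 0.05 there were 7 of 19 V genes, all lower. Trbv4, Trbv12-2, Trbv15, Trbv20, Trbv26 and Trbv29 were also lower in all 5 mice, so this was not particular to Trbv13-2 and Trbv13-3. No member was called. Trbv13-1 went from 11.2%, 6.24%, 5.23%, 6.83% and 5.98% to 3.85%, 3.19%, 3.10%, 21.7% and 4.97%. It was lower in 4 of 5 mice, and its mean difference of 0.251 points turned to −3.40 without mouse 4 (adjusted p = 1 and 0.0776, exact permutation).

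On the left Trbv13-2 held 1.36%, 4.34%, 1.09%, 6.72% and 4.69% of templates, again below the TdLN of all 5 mice (difference −4.46 points, exact permutation p = 0.0238, adjusted p = 0.0905). It was above all other left tumors in mouse 4, where it lay within the range of the nodes. Trbv13-1 held 4.50%, 4.07%, 1.89%, 26.5% and 9.04% there, and its difference of 2.09 points turned to −2.30 without mouse 4. Trbv13-3 held 3.17%, 3.27%, 11.1%, 2.10% and 5.27%, with mouse 3 above every node (difference −0.330 points, and 0.460 without mouse 4 or 0.0146 without mouse 2). None of 19 V genes was called (0%, 8 at an unadjusted p under 0.05, 7 of them lower, exact permutation tests). Trbv2, Trbv12-1, Trbv12-2, Trbv26, Trbv29 and Trbv31 were, like Trbv13-2, lower in all 5 mice. Between the 2 tumors no member was called either (0 of 18 V genes, 0%, 1 unadjusted), and Trbv13-3 differed by −3.19 points (adjusted p = 0.571, exact permutation). Trbv13-2 had nearly the same share in both tumors of each mouse, with a mean difference of 0.230 points and an SD of 0.485 within mice.

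A larger part of the family's templates lay in a few TCRs in the tumors than in the nodes, to a degree that varied between samples. The 3 most abundant Trbv13 TCRs held 1.78% to 36.0% of the family's templates in the TdLNs (median 9.53%), 39.8% to 85.3% in the right tumors and 37.0% to 88.1% in the left tumors. Node 1, the highest of the nodes, lay just below left tumor 1, and the nodes did not overlap with the tumors of either side. The lowest nodes, 4 and 5 at 1.78% and 1.88%, held 1247 and 1288 unique Trbv13 TCRs, against 282 to 321 in the other nodes. Some of the most abundant Trbv13 TCRs of the tumors (TCR A to TCR F) and the largest of TdLN 1 and TdLN 3 (TCR G and TCR H) are shown. They are given as listed, 87 bases each, with the junction between the V and J parts in capitals. The lower-case start is V gene sequence on chromosome 6 (GRCm38) and the lower-case end is J gene sequence.
TCR A (from right tumor 4, Trbv13-1, Trbj1-2): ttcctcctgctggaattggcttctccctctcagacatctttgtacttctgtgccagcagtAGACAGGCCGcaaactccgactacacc
TCR B (from left tumor 4, Trbv13-1, Trbj2-4): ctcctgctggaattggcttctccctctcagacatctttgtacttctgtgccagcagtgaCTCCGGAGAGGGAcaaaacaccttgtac
TCR C (from right tumor 4, Trbv13-2, Trbj2-7): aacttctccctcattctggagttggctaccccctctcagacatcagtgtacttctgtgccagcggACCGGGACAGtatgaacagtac
TCR D (from left tumor 3, Trbv13-3, Trbj1-4): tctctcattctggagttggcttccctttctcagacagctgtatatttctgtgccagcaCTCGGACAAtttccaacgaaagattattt
TCR E (from left tumor 5, Trbv13-1, Trbj1-2): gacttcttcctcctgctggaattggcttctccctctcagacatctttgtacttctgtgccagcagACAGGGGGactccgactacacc
TCR F (from right tumor 2, Trbv13-2, Trbj2-1): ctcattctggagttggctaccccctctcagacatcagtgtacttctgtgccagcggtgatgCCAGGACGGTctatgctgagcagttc
TCR G (from TdLN 1, Trbv13-1, Trbj2-7): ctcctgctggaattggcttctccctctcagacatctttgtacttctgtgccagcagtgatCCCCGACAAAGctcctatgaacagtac
TCR H (from TdLN 3, Trbv13-3, Trbj2-7): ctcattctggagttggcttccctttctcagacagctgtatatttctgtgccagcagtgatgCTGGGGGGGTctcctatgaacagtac
In the first 3, which came from mouse 4, the lower-case V parts span chr6:41116405-41116464, chr6:41116408-41116466 and chr6:41121763-41121827, inside the second exons of Trbv13-1, Trbv13-1 and Trbv13-2.

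These 3 TCRs held 85.3% of the family's templates in right tumor 4 and 88.1% in left tumor 4. TCR A, the largest Trbv13-1 TCR of the right tumors, had 538 templates in right tumor 4, where it was the most abundant TCR of any V gene (10.1% of templates, 95% Wilson interval 9.36% to 11.0%), with 9 in the TdLN and 13 in the left tumor of that mouse. TCR B had 515 templates in right tumor 4 and 48 in left tumor 4, where it was the most abundant TCR at 20.2% (95% Wilson interval 15.6% to 25.7%), and none in TdLN 4, of 8728 productive templates. TCR C, the largest Trbv13-2 TCR of the right tumors, had 357 templates in right tumor 4 and 13 in left tumor 4. All 3 were also listed in right tumor 5, with 31, 24 and 21 templates. TCR D, the largest with Trbv13-3, had 328 templates in left tumor 3 (8.51%) and was in neither other sample of that mouse, but was listed with 16 templates in left tumor 1 and 7 in left tumor 2. TCR E, the largest Trbv13-1 TCR of the left tumors and one with no N bases in its junction, had 127 templates in left tumor 5 and was in no other sample. How the same rearrangements came to be listed in 2 or more mice was not tested.

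Sharing of Trbv13 TCRs between the right and left tumors was uneven between mice, counted with the TCRs that were also listed in other mice. In mice 1, 2 and 4 the tumors had 21, 22 and 10 rearrangements in common, which were 46.7%, 37.9% and 11.6% of those on the right and 33.3%, 29.3% and 100% of those on the left. In mice 3 and 5 they had 0 in common, of 30 and 75 on the right and 36 and 121 on the left. TCR F was the largest Trbv13 TCR of both tumors of mouse 2 and had 142 templates on the right, 112 on the left and 5 in the TdLN, and 18 in left tumor 1. A Trbv13-1 and Trbj2-1 TCR was the largest of both tumors of mouse 1, with 112 templates on the right, 61 on the left and 27 in the TdLN, and it was also listed with 8 templates in left tumor 2 and 1 in right tumor 2. TCR G was the largest of TdLN 1 and had 205 templates there (5.42%), 62 in the right and 13 in the left tumor. TCR H was the largest of TdLN 3, with 127 templates (3.22%), and was in none of the other samples. The largest of right tumor 3 (Trbv13-1, Trbj2-7, 61 templates) was in no other sample, and that of right tumor 5 (Trbv13-2, Trbj2-7, 84 templates) was elsewhere only in its TdLN, with 9. In nodes 2, 4 and 5 the largest Trbv13 TCR had only 24, 18 and 18 templates. The remaining largest ones by gene used Trbv13-2 (49 templates in TdLN 3, 4 in its right tumor) and Trbv13-3 (55 templates in right tumor 4, 2 in its TdLN and 6 in right tumor 5). Trbv13-1 supplied the largest Trbv13 TCR in 4 of 5 nodes and in 3 of 5 tumors on each side.

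**Figure D3:**
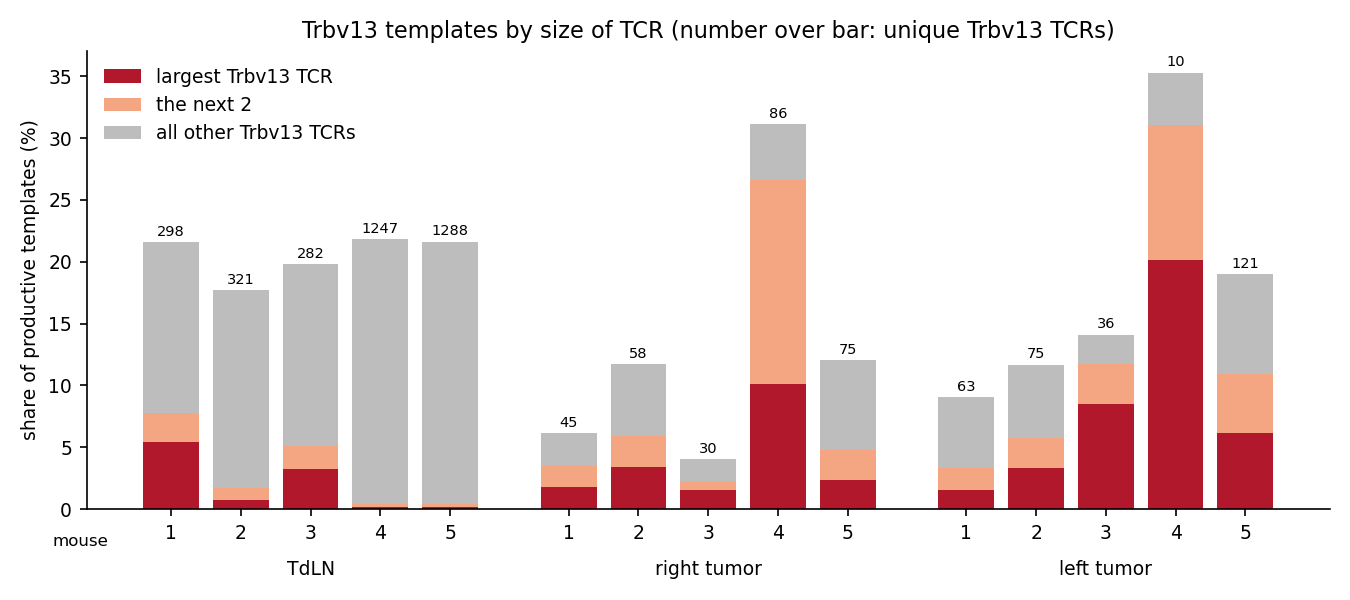
Share of productive templates (%) held by Trbv13 TCRs in each of the 15 samples, stacked as the largest TCR, the next 2 and all others, with the number of unique Trbv13 TCRs over each bar. The coloured part is 26.6% of templates in right tumor 4 and 31.1% in left tumor 4, and under 0.5% in nodes 4 and 5.

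Rearrangements that are out of frame or hold a stop codon make no chain, and were used to set the family's share of productive TCRs beside its share of rearrangements that encode no receptor. In the TdLN the family was more frequent among productive than among non-productive rearrangements in all 5 mice. It held 15.6%, 15.1%, 14.7%, 16.4% and 16.8% of the non-productive ones in mice 1 to 5, against 22.1%, 19.7%, 21.9%, 21.8% and 22.5% of the productive ones, and the 2 sets did not overlap. The difference was 5.89 points ± 0.972 (SD, n = 5, exact two-sided sign-flip p = 0.0625, the smallest that 5 mice allow). Each member moved the same way in all 5 mice, by 1.76 ± 0.328 points for Trbv13-1, 2.25 ± 0.536 for Trbv13-2 and 1.88 ± 0.730 for Trbv13-3 (SD, n = 5). Of the 20 V genes compared, 6 (30%) were higher among the productive rearrangements in all 5 mice, the 3 members among them, and 5 (25%) were lower in all 5 mice. Seen per gene, 70.4% ± 1.94 of Trbv13 rearrangements in the TdLN were in frame without a stop, against 61.7% ± 3.15 for the other V genes together (SD, n = 5).

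In the tumors the same contrast was less even. In the right tumors the family was higher among productive rearrangements in 5 of 5 mice, by 5.62 points ± 4.56 (SD, n = 5, exact sign-flip p = 0.0625), with 0.312 points in mouse 2 and 11.2 in mouse 4. For the left tumors the difference was 2.14 points ± 6.52 (SD, n = 5, exact sign-flip p = 0.625) and 3 of 5 mice were higher. Trbv13-2 was the member that differed there, being higher among the non-productive rearrangements in 4 of 5 left tumors (9.09% ± 4.94 against 6.56% ± 1.91, SD, n = 5, exact sign-flip p = 0.313). Left tumor 3 had the highest non-productive share of Trbv13-2, 16.8%, of its 196 non-productive rearrangements. Whether the tissues differ in this contrast was not tested.

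**Figure D4:**
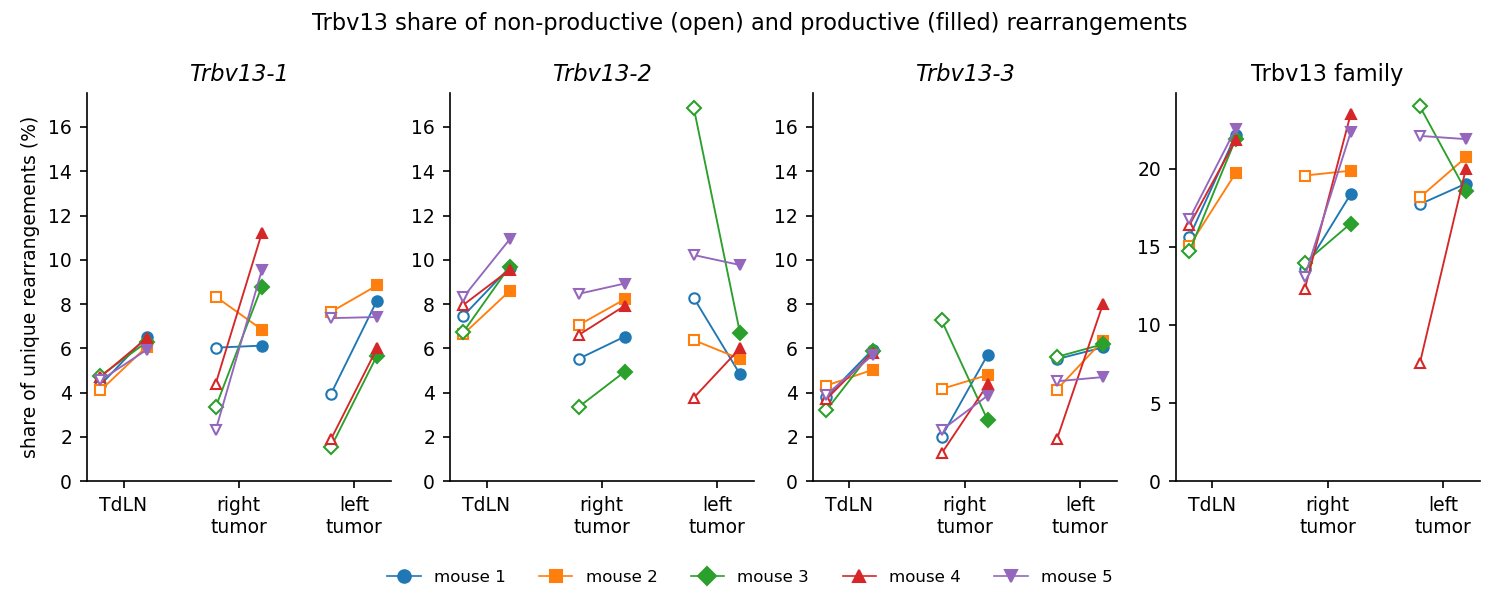
Share of unique rearrangements (%) that used each Trbv13 gene or the family, among non-productive (open) and productive (filled) rearrangements of the same sample, joined by a line for each mouse. In the TdLN all 5 lines rise in each panel, and in the left tumors 4 of 5 lines fall for Trbv13-2.

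For the J partners of Trbv13 TCRs, 2 of 12 J genes were called lower in each tumor than in the TdLN, calls that were lost when the mouse was a block and whenever 1 mouse was left out. In the right tumors Trbj2-5 made up 6.67%, 8.62%, 0%, 6.98% and 4% of unique Trbv13 TCRs in mice 1 to 5, against 14.4%, 11.9%, 12.1%, 11.0% and 10.9% in the TdLNs, with no overlap (adjusted p = 0.0476 over 12 J genes, exact permutation). The share of 0 in mouse 3 was of 30 TCRs, too few to exclude a share of up to 10%. Trbj1-4 made up 2.22%, 1.72%, 3.33%, 1.16% and 1.33% on the right, 1 TCR in each tumor, against 4.36% to 6.998% in the TdLNs (adjusted p = 0.0476, exact permutation). These 2 of 12 J genes (16.7%) were the ones called. Trbj1-1 was higher in all 5 right tumors, at 33.3%, 12.1%, 23.3%, 11.6% and 17.3% against 8.51% to 12.4% (adjusted p = 0.0952, exact permutation). In the left tumors the called J genes were Trbj2-3 at 4.76%, 2.67%, 0%, 0% and 4.96% against 5.96% to 9.06%, and Trbj2-5 at 4.76%, 6.67%, 8.33%, 10% and 10.7% against 10.9% to 14.4% (2 of 12, 16.7%, adjusted p = 0.0476 for each, exact permutation). The 0% values of Trbj2-3 were 0 of 36 and 0 of 10 TCRs, which allow shares of up to 8.33% and 30%.

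**Figure D5:**
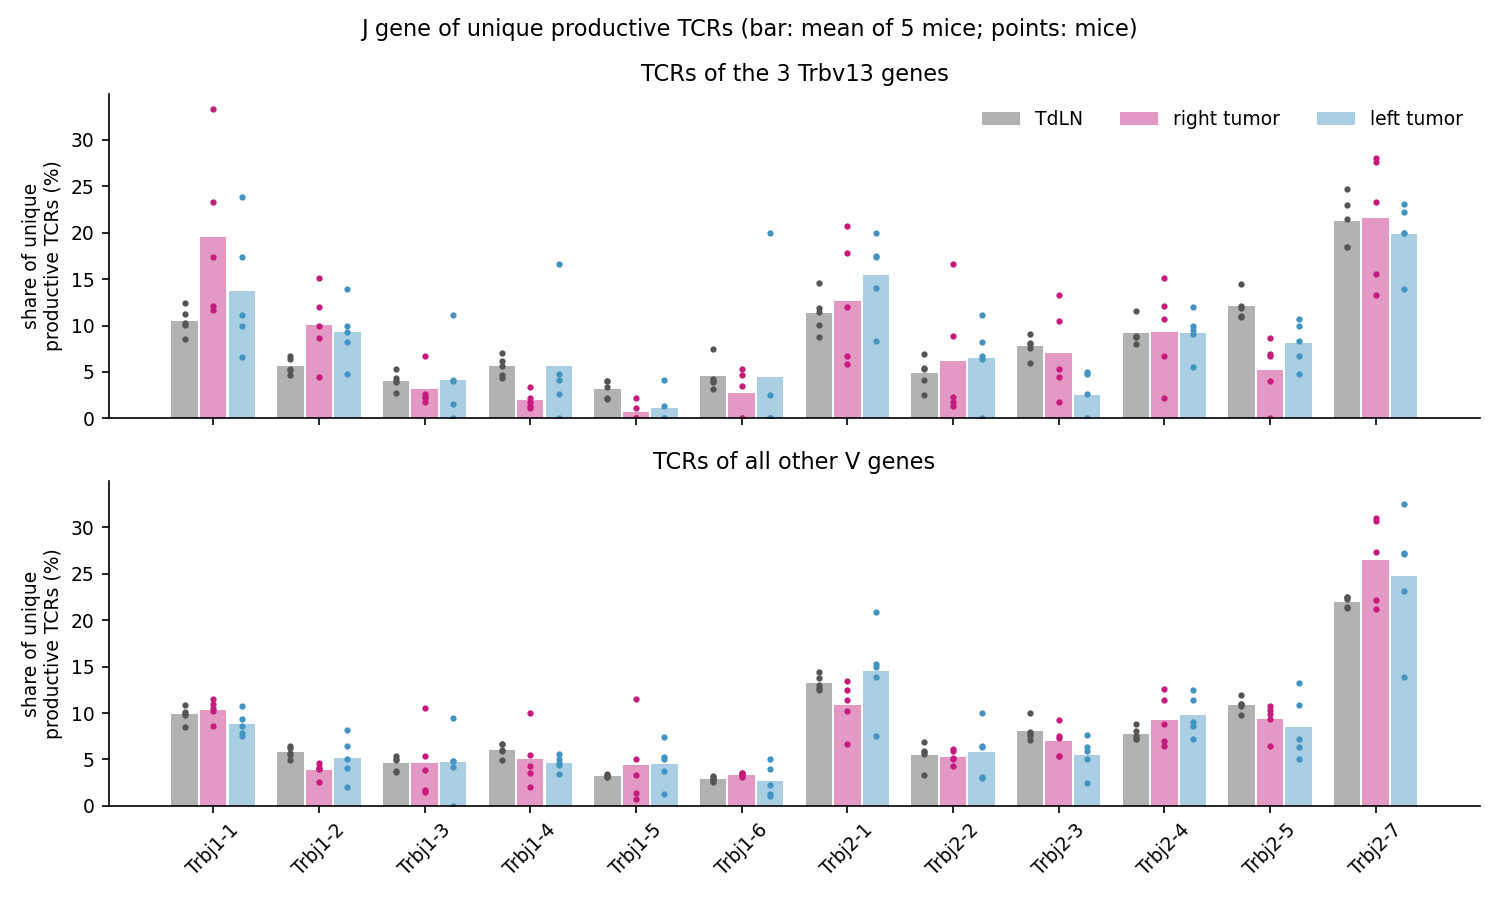
Share of unique productive TCRs (%) by J gene in the 3 tissues, for the 3 Trbv13 genes (top) and for all other V genes (bottom), with bars at the mean of 5 mice and a point per mouse. Trbj2-5 was lower in both tumors than in the TdLN among Trbv13 TCRs, 5.25% and 8.10% against 12.1%.

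Among TCRs of the other V genes 0 of 12 J genes were called in either comparison (2 at an unadjusted p under 0.05 in each, exact permutation tests). The difference between the Trbv13 change and the change in other V genes was tested directly and no J gene passed in either comparison (lowest adjusted p = 0.0952, exact permutation). For Trbj2-5 in the right tumors this difference was −5.28 points, from −6.81 among Trbv13 TCRs and −1.53 among the others (adjusted p = 0.0952, exact permutation). With the mouse as a block none of the J calls held, since 5 mice allow no p under 0.0625 (adjusted p = 0.188 on the right and 0.25 on the left, exact sign-flip test). The calls were also lost when TCRs of 1 template were left out, a setting chosen after seeing the data, where Trbj2-5 differed by −0.814 points on the right and −1.08 on the left, Trbj1-4 on the right by −2.53 and Trbj2-3 on the left by −3.65. By templates Trbj1-4 on the right (−3.83 points) and Trbj2-3 on the left (−4.90) were still called (adjusted p = 0.0476, exact permutation), while Trbj2-5 was not (−3.36 on the right, adjusted p = 0.435, and −4.31 on the left, adjusted p = 0.0952, exact permutation). Without TCRs found in another mouse, also chosen after seeing the data, the right calls held, and on the left Trbj2-5 turned from −3.96 to 0.459 points and Trbj2-3 (−5.37) was no longer called. The second J cluster as a whole, Trbj2, was used by 66.4% ± 1.17 of Trbv13 TCRs in the TdLN, 62.0% ± 6.76 in the right and 61.6% ± 8.80 in the left tumors (SD, n = 5).

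Over unique TCRs, the mean CDR3 length of the family differed between tissues by less than the spread between mice. It was 13.94 amino acids ± 0.153 in the TdLN, 13.98 ± 0.180 in the right and 14.01 ± 0.238 in the left tumors (SD, n = 5), counted from the conserved cysteine to the phenylalanine of the J gene. The right tumors differed by 0.0368 amino acids (exact permutation p = 0.770, and −0.0417 without mouse 2) and the left tumors by 0.0685 (exact permutation p = 0.611). Weighted by templates, the CDR3 was longer than in the TdLN by 0.475 amino acids in the right tumors (exact permutation p = 0.0556) and by 0.243 in the left tumors (exact permutation p = 0.238). The median over unique TCRs was 14 in all 5 nodes. Within the TdLN the junctions of the family had fewer N bases than those of the other V genes in all 5 mice (3.28 ± 0.259 against 3.68 ± 0.325, SD, n = 5, exact sign-flip p = 0.0625). Fewer bases were trimmed from the V gene end too, 2.21 ± 0.1004 against 2.78 ± 0.163 (SD, n = 5), lower in all 5 mice. By member, trimming removed 2.71 ± 0.154 bases from Trbv13-3, 2.07 ± 0.216 from Trbv13-1 and 2.02 ± 0.201 from Trbv13-2 (SD, n = 5). The germline residues that the shown V ends encode, up to the aspartate, were kept by 40.3% ± 3.68 of Trbv13-3 TCRs in the TdLN, 54.0% ± 7.99 of Trbv13-1 and 56.9% ± 5.13 of Trbv13-2 (SD, n = 5). The mean number of N bases in the tumors was 3.81 ± 0.386 on the right and 3.70 ± 0.387 on the left (SD, n = 5), higher than in the TdLN in 4 and 5 of 5 mice, where the other V genes had 4.12 ± 0.342 and 3.88 ± 0.244.

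The share of right tumor TCRs found again in the TdLN of the same mouse was set beside that of the other V genes. Identical rearrangements in the TdLN were found for 44.4%, 29.3%, 43.3%, 11.6% and 22.7% of unique Trbv13 TCRs of right tumors 1 to 5, and for 46.0%, 37.2%, 50.7%, 11.4% and 23.8% of the others. The family was lower in 4 of 5 mice, with a mean difference of −3.53 points ± 3.77 (SD, n = 5, exact two-sided sign-flip p = 0.125). The difference turned to 2.97 points with TCRs of at least 2 templates and was −5.57 without TCRs found in another mouse (exact sign-flip p = 0.25 for each). The TCRs found again held a larger share of templates than of TCRs in all mice but mouse 3, namely 88.0%, 81.7%, 38.8%, 36.9% and 56.1% of the Trbv13 templates of right tumors 1 to 5. For the other V genes these were 95.3%, 90.3%, 91.9%, 31.2% and 55.5%, so that the family was lower by templates in mice 1 to 3, most of all in mouse 3, and higher in mice 4 and 5 (difference −12.6 points, exact sign-flip p = 0.25). Of the left tumors, 25.4%, 24.0%, 0%, 30% and 2.48% of Trbv13 TCRs were in the TdLN of the same mouse, which drained the right side. The 0% was 0 of 36 TCRs and the 30% was 3 of 10 (95% Wilson interval 10.8% to 60.3%). These did not differ from other V genes beyond the spread (difference 1.55 points ± 6.70, SD, n = 5, exact sign-flip p = 0.813, and −1.19 without mouse 4). Without TCRs found in another mouse the difference was 0.986 points (exact sign-flip p = 0.75). Identical rearrangements were in the TdLN of another mouse for up to 20.6% of Trbv13 TCRs of left tumor 1 and 12% of left tumor 2.

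Most Trbv13 CDR3s were found in a single mouse, a count set by the nodes, which held 3009 of the 3270 distinct ones, while the tumors shared rearrangements with other mice at the higher rates given at the start. Of 3270 distinct CDR3 amino acid sequences, 3110 (95.1%) were in 1 mouse and 4 in 4 mice, and none was in all 5. The CDR3 with the most templates among those 4 was made from 6 different rearrangements of Trbv13-1 and Trbv13-3 with Trbj2-7, and had 60 templates in right tumor 2, 31 in left tumor 2, 13 in TdLN 2, 20 in right tumor 5, 12 in left tumor 1 and 3 in TdLN 3. The next was made from 2 rearrangements of Trbv13-1 with Trbj1-1, with 1 to 15 templates in 8 samples. The third was made from 5 rearrangements of Trbv13-1 and Trbv13-3 with Trbj1-1, with 1 to 4 templates in 8 samples. A single identical rearrangement was listed in up to 2, 4 and 3 mice for these CDR3s, in the same order. All 3 kept the germline V residues up to the aspartate. Only 60 of the 3270 CDR3s were made from more than 1 member of the family.

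Across the 15 samples, the V genes whose share of unique TCRs was most like the family's were Trbv14 (Pearson r = 0.611), Trbv20 (r = 0.548) and Trbv29 (r = 0.510). These shares are parts of one total and come from 3 tissues of the same 5 mice with very different numbers of TCRs, so the values are a description only.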

How the data were processed

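TCRβ rearrangements of sorted CD8+ PD-1+ CD44+ T cells were measured in 15 samples, and the 15 deposited tables were used as given. The provider amplified and sequenced genomic DNA and assigned V, D and J genes. Per the file headers, the values were template counts per rearrangement with its sequence, frame and CDR3 length. The submitters' processing notes named mm10, and other upstream steps are not given in the sources used here. Groups came from the labels, and same-numbered samples were taken to be of the same mouse, since the study describes paired TdLN and tumor samples. Right tumor Trbv13 TCRs were in their own TdLN in 11.6% to 44.4% of cases and in another mouse's in at most 5.33%. For left tumors the own TdLN gave 0% to 30% and another mouse's up to 20.6%. In left tumor 5 these were 2.48% and 3.31%, and in left tumor 3 both were 0%, so there the pairing rests on the numbering. The permutation tests treated all samples as independent and did not use the pairing of tissues within a mouse. Rearrangements listed in several mice also make some samples less independent than these tests assume. Without further labels on rearing or sorting days, p-values measure the spread between these samples only.

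Shares were computed over rearrangements with a V gene (16 had none), with Wilson intervals at 95% and a limit of 3 counts where a share was 0, both covering counting error only. Mean shares of 2 tissues were set against all 252 arrangements of the 10 samples (two-sided exact permutation test, smallest p 0.00794), with Benjamini-Hochberg adjustment over every V gene, V family or J gene that averaged 1% or more. Within-mouse contrasts used exact sign-flip tests. Python 3.11.15, scipy 1.17.1, pandas 2.3.3 and limma 3.58.1 in R 4.3.3 were used. The permutation test was also run on simulated shares of unique TCRs with counting error only. These held no spread between mice and no differences in clone size, so they do not show how the test behaves on the real samples. Gene positions were from GENCODE M21 and sequences from RefSeq, both of GRCm38, the assembly of mm10. All 35 V and 14 J names matched. Named TCRs were the largest Trbv13 TCR of each sample and of each member and tissue, the 3 CDR3s in most mice and J genes past the threshold. The members and lists were chosen with earlier results of these data known. Alternatives were another unit of a unique TCR, at least 2 templates, rarefaction, TCRs left out by size, by shared ends or by another mouse, medians, each mouse left out, the mouse as a block, mice 1 to 3 and mice 4 and 5 (2 styles of sample name), other filters and limma.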

Additional observations from a re-analysis of the deposited data

Results flagged for a closer look

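In 47 sets of 5 samples, 6 had a sample whose gap to the nearest other was over 0.71 of the range. Chance gives about 1 in 20 such sets if values are normally distributed and sets independent. These sets share samples and hold nested shares, so their count cannot be set against that rate. TdLN 2 had the lowest family share of unique TCRs, 19.7% against 21.8% to 22.5% in the other nodes, and the lowest Trbv13-3 share, 5.03% against 5.69% to 5.94%. TdLN 1 had the highest Trbv13-1 share of templates, 11.2% against 5.23% to 6.83%, and its largest Trbv13-1 TCR alone held 5.42% of its templates. Right tumor 4 held 21.7% of its templates in Trbv13-1 against 3.10% to 4.97% in the other right tumors. Right tumor 2 had the highest family share of non-productive rearrangements, 19.6% against 12.3% to 13.97%. Left tumor 3 had the highest Trbj1-4 share of Trbv13 TCRs, 16.7% (6 of 36 TCRs) against 0% to 4.76%. No measure moved one way in all 5 right tumors and the opposite way in all 5 left tumors relative to the TdLN, of 15 looked at.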

How the results depend on the processing

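The higher share of the family among productive than non-productive rearrangements of the TdLN (5.89 points) kept its direction under all 8 alternatives, from 5.57 to 6.77 points. No test of the family's own share between tissues passed the threshold under any alternative. Of the alternatives for these shares and the other main results, 155 kept direction and side of the threshold, 20 turned the direction and 17 lost a call, and for single members and J genes 316, 31 and 36 did, with 9 gaining one. The cause of the changes was not tested, except where fewer mice raise the smallest possible p (0.0286 with 4 against 4). Those values say nothing about stability.

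The 2 called J genes of each comparison fell to 0 with at least 2 templates. They also fell to 0 with the mouse as a block (smallest sign-flip p 0.0625). The same held in every set without 1 mouse (0 to 0, smallest permutation p 0.0286). On the left they also fell to 0 with CDR3 amino acid sequences, without shared ends and without TCRs found in another mouse, where Trbj2-5 turned to 0.459 points. The 4 V genes called by templates on the right (none a member) became 6 with non-productive rearrangements included, 5 with limma (with or without the mouse as a block) or without the largest TCRs, and 0 with at least 2 templates, without shared ends, without TCRs of another mouse, with medians, with another filter or in the sign-flip test with the mouse as a block, where no p can be under 0.0625. Of the 9 calls gained, 4 are in the report for unique TCRs. The others were by templates: Trbv13-3 on the right in the 3 limma fits (adjusted p = 0.0476, 0.0243 and 0.0332), Trbv13-2 on the right with non-productive rearrangements included (adjusted p = 0.0278, exact permutation) and Trbv13-2 on the left with limma on log2(share + 1) (adjusted p = 0.0336).

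Values that turned sign were those below, in percentage points unless given as log2. The family's right minus left difference by unique TCRs (0.0688) was −0.898 with amino acid sequences, −1.21 with at least 2 templates, −0.517 without shared ends, −0.137 with medians, −1.20 in mice 1 to 3, −0.0043 and −0.00373 (log2) in limma with offsets of 0.1 and 1, −0.0043 with the block, and −0.788 to 0.604 without 1 mouse. Against the TdLN it was 0.742 on the right in mice 4 and 5 and 0.096 on the left with at least 2 templates, and by templates on the left 0.667 with non-productive rearrangements and 5.41 in mice 4 and 5. Trbv13-1 by templates was, on the left, −0.601 without the largest TCRs, −1.74 with medians, −4.08 in mice 1 to 3, −0.159 and −0.0875 (log2) in limma, −0.159 with the block and −2.30 to 4.30 without 1 mouse. On the right it was −0.112 with at least 2 templates, −0.283 without TCRs of another mouse, −2.39 with medians, −4.19 in mice 1 to 3, −0.363 and −0.284 (log2) in limma, −0.363 with the block and −3.40 to 2.16 without 1 mouse. Right minus left it was 0.908 without the largest TCRs, and −0.301 by unique TCRs in mice 1 to 3. Trbv13-2 right minus left by templates was −1.20 with non-productive rearrangements, −0.0627 in mice 1 to 3, −0.0597 and −0.00411 (log2) in limma and −0.0597 with the block, and by unique TCRs −0.210 with amino acid sequences and −0.191 without shared ends. Trbv13-3 on the left was 1.09 by templates without the largest TCRs, 0.71 in mice 1 to 3 and −1.52 to 0.460 without 1 mouse, and by unique TCRs −0.231 with at least 2 templates and −0.627 without TCRs of another mouse. CDR3 length (amino acids) was −0.0374 on the left in mice 4 and 5, and on the right −0.0186 with medians and −0.0417 to 0.109 without 1 mouse. The overlap with the TdLN against other V genes was 2.97 on the right with at least 2 templates, and on the left −4.24 by templates and −1.19 to 2.88 without 1 mouse. The low depth of left tumor 4 (10 Trbv13 TCRs, of 238 productive templates) and the 30 to 121 Trbv13 TCRs of the other tumors limit every tumor share.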
